A study of Mus musculus with 38 samples.

Results

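The genes described here are 5 genes of major histocompatibility complex (MHC) class II: Cd74, H2-Aa, H2-Ab1, H2-Eb1 and Ciita. They were chosen by name among the 23700 entries of each gene table, and each was found once in all 14 RNA-seq libraries of a study of mouse CD4 T helper cells that holds 38 samples in all. The study compared the Th1 and Th2 lineages with and without the signal transducers STAT4 and STAT6, and with added T-bet or GATA3, the factors that direct each lineage. Levels are FPKM, fragments scaled to transcript length and sequencing depth, so they can be compared between genes.

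All 14 libraries came from naive CD4 T cells of C57BL/6J mice, sorted by flow cytometry from spleen and lymph nodes and grown in culture. Cultures without a vector were kept for 7 days under Th1 or Th2 conditions and stimulated again for 2 h with plate-bound antibodies to CD3 and CD28 plus IL-12 (Th1) or IL-4 (Th2). On the Th1 side this set held WT (2 libraries) and cells without STAT4 (STAT4 KO) or T-bet (T-bet KO), and on the Th2 side WT cells and cells without STAT6 (STAT6 KO). Cultures with a retroviral vector are labelled as kept for 5 days. The Th1 cells among them, WT or STAT4 KO, carried either a control vector or one for T-bet. The Th2 cells, WT or STAT6 KO, carried either a control vector or one for GATA3. Naive cells were stimulated for 16 h on plate-bound antibodies before the virus, then grown with 10 ng/mL IL-12 or IL-4 and, for the last 3 days, with 50 U/mL IL-2. Antibody to IL-4 was added to the Th1 cultures with a vector and antibody to interferon-gamma to the Th2 cultures with a vector. A second label field of the Th1 vector cultures gives 7 days and a 2 h restimulation, the Th2 vector cultures have no such field, and no label says that cells carrying the vector were sorted. Vector, culture time and restimulation cannot be told apart. Of 13 groups, 12 held 1 library, and no label says which libraries share an animal or a culture, so the spread behind the p-values is that of these libraries and may be technical.

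MHC class II molecules present peptides to CD4 T cells and are made mainly by B cells, dendritic cells and macrophages. H2-Aa and H2-Ab1 encode the alpha and beta chains of I-A, H2-Eb1 encodes the beta chain of I-E, and Cd74 encodes the invariant chain that escorts new class II molecules to the endosome. Ciita encodes the coactivator that switches these genes on, largely through interferon-gamma in cells that are not professional presenters. It binds no DNA itself and acts through factors on the X and Y boxes of their promoters. Mice of the C57BL/6 background lack a working I-E alpha chain. Mouse T cells are generally held to make little class II, so the markers of presenting cells are given beside the results below.

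Class II promoters are known for a shared element, shown here for the members and loading genes that hold it. RefSeq promoter windows, 250 bases before to 50 after a gene's start on GRCm38.p6, were found for 2 of the 5 members and for 8 of 13 class II genes. The letters CNNGNAAC (an X box core), a spacer of 25 to 28 bases and ATTGG (the Y box) were searched on both strands. They were found in 6 of the 8, as against 0.158% of all 32851 windows, and the letters were set with these promoters in view. Capitals mark the X core and the Y box in each run, written 5′ to 3′ along the gene.
H2-Aa: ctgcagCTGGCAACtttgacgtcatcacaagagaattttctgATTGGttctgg
H2-Eb1: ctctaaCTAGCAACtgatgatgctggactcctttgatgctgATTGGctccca
H2-Oa: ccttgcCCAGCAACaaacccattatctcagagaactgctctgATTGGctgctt
H2-Ob: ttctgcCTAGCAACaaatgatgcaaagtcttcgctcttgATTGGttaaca
H2-DMb1: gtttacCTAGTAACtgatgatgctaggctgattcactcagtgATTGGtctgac
These are chr17:34287861-34287913 (minus strand) for H2-Aa, chr17:34305767-34305818 for H2-Eb1, chr17:34092294-34092346 for H2-Oa, chr17:34238809-34238858 for H2-Ob and chr17:34153088-34153140 for H2-DMb1, the last 4 on the plus strand. The X core began 84 bases before the start of H2-Aa and 94 before that of H2-Eb1. H2-Eb2 also held the letters, and the windows of H2-DMa and H2-DMb2 did not. The search describes letters, and no protein binding was measured in it.

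Depth, estimated from the width of the Cufflinks intervals, was about 21900000 to 38500000 fragments in genes per library. Stat4 was 6.71 to 17.5 FPKM in the STAT4 KO libraries and 37.1 to 60.8 in their WT Th1 partners (T-bet KO held 7.52 and WT Th1 replicate 2 held 15.1). Stat6 was 23.3 to 36.1 in the STAT6 KO libraries and 35.6 to 65.9 in theirs, and Tbx21, which encodes T-bet, was 4.18 in T-bet KO and 88.4 and 153 in WT Th1. Reads from outside the changed part of a gene can still be counted, so Stat6 levels check little. WT Th1 replicate 2 and T-bet KO Th1 stood apart: their profiles correlated at 0.976 with each other and at 0.676 to 0.801 with the other 12, which correlated at 0.856 to 0.990 among themselves (Pearson's r of log2(FPKM + 1) over genes). The labels name no batch. The fit therefore carried a term for these libraries, and values of T-bet KO, 1 library, are described without a test. Genes were tested with limma on log2(FPKM + 1), over the 11121 genes that reached 1 FPKM in 2 or more libraries. A gene was called where the p, adjusted by Benjamini and Hochberg's method, was under 0.05. Errors of log2 differences are standard errors of that fit.

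Cd74 was detected well in every library. On the mm9 build it lies on chromosome 18, from 60963503 to 60972306. Its median was 9.92 FPKM over the 14 libraries. In Th1 cells it stood at 23.7 FPKM in WT replicate 1, 20.6 with the control vector and 10.3 with the T-bet vector, and at 2.88, 9.58 and 6.87 in the STAT4 KO partners of these 3 libraries. In Th2 cells it stood at 11.5 FPKM without a vector, 10.8 with the control vector and 8.59 with the GATA3 vector, and at 2.13, 8.07 and 3.87 in the STAT6 KO partners. All 6 knockout libraries were thus below their WT partners, by a narrow margin between the groups: 9.58 against 10.3 FPKM at the nearest in Th1 and 8.07 against 8.59 in Th2. Of all 11121 genes tested, 8.55% were lower in STAT4 KO and 3.7% lower in STAT6 KO with no overlap of these groups, and neither fitted difference of Cd74 passed (limma, adjusted p = 0.121 and 0.225). The highest level was 44.9 FPKM in T-bet KO Th1, and WT Th1 replicate 2 held 11.96. The 8 libraries between 6.87 and 11.96 FPKM formed a run in which the Cufflinks intervals of neighbours overlapped. In 2 libraries, STAT4 KO Th1 and STAT6 KO Th2, both without a vector, Cd74 was under 3 FPKM. In such bulk values, fewer cells that make a transcript and less transcript per cell cannot be told apart.

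H2-Ab1, the I-A beta chain, lies on chromosome 17 from 34400172 to 34406363 and was the other member present in nearly all libraries. Its median was 7.75 FPKM, and 13 of 14 libraries reached 1 FPKM. In Th1 cells it stood at 4.50 FPKM in WT replicate 1, 12.3 with the control vector and 10.2 with the T-bet vector, against 1.09, 3.87 and 2.76 in the STAT4 KO partners. In Th2 cells it stood at 5.26 FPKM without a vector, 11.6 with the control vector and 14.1 with the GATA3 vector, against 0.371, 4.17 and 25.3 in the STAT6 KO partners. The STAT6 KO library with the GATA3 vector, the highest of these 12, went the other way from the other 2 pairs. The 2 libraries that stood apart were higher still: WT Th1 replicate 2 held 81.9 FPKM and T-bet KO held 36.1. The 2 WT Th1 replicates therefore differed 18.2-fold in H2-Ab1, and 1.98-fold in Cd74.

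H2-Aa, the alpha chain that pairs with H2-Ab1, was far lower and reached 1 FPKM in 3 libraries, WT Th1 with either vector and T-bet KO. It lies on chromosome 17 from 34419696 to 34424716, and its median was 0.165 FPKM. WT Th1 held 0.704 FPKM in replicate 1, 3.18 with the control vector and 1.78 with the T-bet vector, and the STAT4 KO partners held 0.0855, 0.163 and 0.163. By the estimate from the intervals, 25, 102 and 55 fragments lay behind the WT values and 3, 5 and 5 behind the STAT4 KO values. In Th2 cells H2-Aa was listed at 0 in WT without a vector, at 0.241 FPKM with the control vector and at 0.166 with the GATA3 vector, and the STAT6 KO partners held 0.0405, 0.123 and 0. No Th2 library reached the level of any WT Th1 library. T-bet KO held 1.67 FPKM and WT Th1 replicate 2 held 0.394.

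H2-Eb1, the I-E beta chain, lies on chromosome 17 from 34442812 to 34453619 and reached 1 FPKM in a single library, WT Th1 replicate 2 (1.02), and T-bet KO held 0.958. WT Th1 held 0.480 FPKM in replicate 1, 0.606 with the control vector and 0.514 with the T-bet vector, and the STAT4 KO partners held 0.0335, 0.192 and 0.134. WT Th2 held 0.131, 0.182 and 0.156 FPKM without a vector, with the control vector and with the GATA3 vector, and STAT6 KO held 0.0595, 0.144 and 0.105. The 3 WT Th1 libraries stood above all 9 others of the 12, as they did for H2-Aa and for 2.31% of the genes tested. About 2 to 79 fragments lay behind these values, and the intervals of all 13 pairs of neighbours in the order of levels overlapped.

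Ciita, on chromosome 16 from 10480165 to 10527657, was close to the limit of detection throughout. Its 14 values ran from 0.0365 FPKM in WT Th2 with the control vector to 0.0976 in STAT4 KO Th1 with the control vector, with a median of 0.0583. It held 0.0892 FPKM in WT Th1 replicate 1 and 0.0408 in its STAT4 KO partner, but 0.0448 and 0.0976 in the pair with the control vector. All intervals of neighbours in the order of levels overlapped, so at this depth no order of the libraries was detectable.

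**Figure D1:**
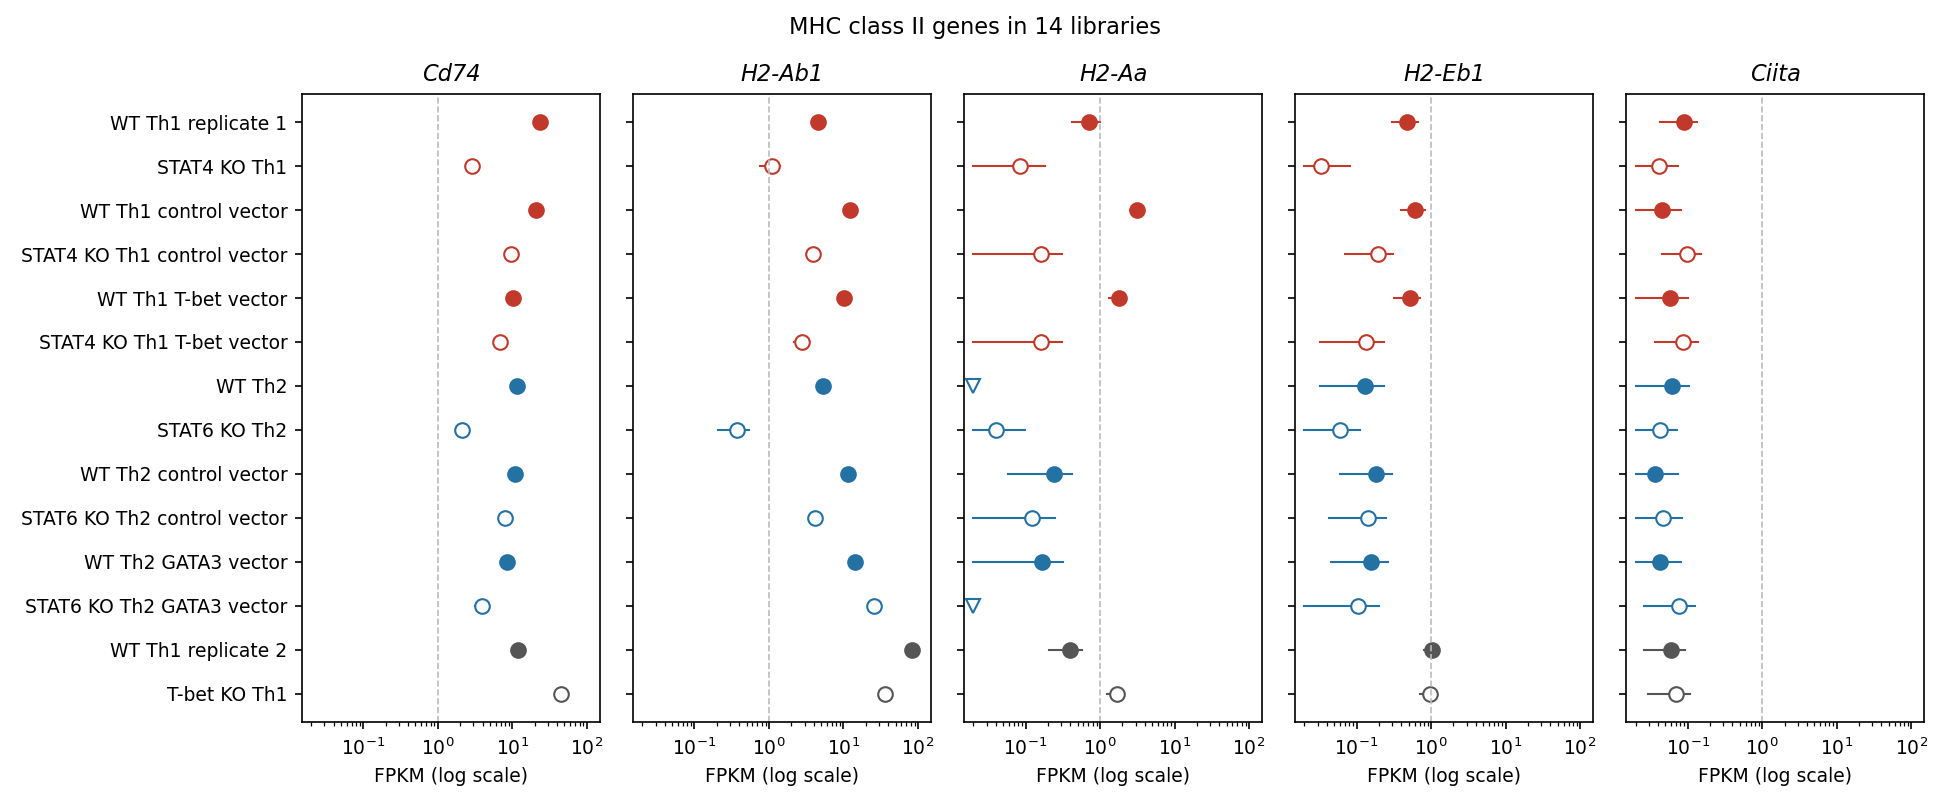
FPKM (log axis) of the 5 class II genes in each of 14 libraries, with Cufflinks intervals as bars (drawn no lower than 0.02). Filled points are WT and open points knockout, red is Th1, blue Th2 and grey the 2 libraries that stood apart, open triangles are values listed at 0, and the dashed line is 1 FPKM. Cd74 is above 2 FPKM everywhere, H2-Aa and H2-Eb1 are highest among the coloured points in the 3 WT Th1 libraries, and Ciita stays under 0.1 FPKM.

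The effect of STAT4 on the class II genes of Th1 cells was read from 3 pairs of libraries. Cd74, H2-Aa, H2-Ab1 and H2-Eb1 were lower without STAT4 in 3 of 3 pairs, as were 22.6% of all genes tested. In FPKM, Cd74 was 8.23-fold lower without a vector, 2.16-fold with the control vector and 1.49-fold with the T-bet vector. H2-Ab1 was 4.11-, 3.18- and 3.71-fold lower in the same order, H2-Aa 8.23-, 19.5- and 10.9-fold, and H2-Eb1 14.3-, 3.16- and 3.83-fold. For these 4 genes the WT and KO libraries did not overlap, against 8.55% of all genes tested that were lower with no overlap. H2-Eb1 is not among the genes tested, and the margin of Cd74 was narrow. Ciita was lower in 1 pair and higher in 2.

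In the fit, H2-Aa fell without STAT4 by 1.25 ± 0.23 on the log2 scale (limma, adjusted p = 0.0440). This was 1 of the 3 members tested, in a comparison where 3.49% of all genes were called, 1.45% higher and 2.04% lower. The differences of the other 2, −1.41 ± 0.45 for Cd74 (limma, adjusted p = 0.121) and −1.47 ± 0.50 for H2-Ab1 (adjusted p = 0.137), were larger in size and did not pass. H2-Aa entered the test through the Th1 libraries where it was high, 2 of them WT with a vector. Its call ended without the term for the libraries that stood apart (adjusted p = 0.111), without the filter on low values (0.0802) and on leaving out any 1 of 11 libraries (0.0528 to 0.197), and held only on leaving out WT Th1 replicate 1, WT Th1 replicate 2 or T-bet KO. With a pseudocount of 0.1 in place of 1 it was −2.87 (adjusted p = 0.0297). H2-Ab1 passed on leaving out either library with the GATA3 vector (adjusted p = 0.0322 for each). H2-Eb1 and Ciita did not reach the filter. In a fit of 21549 genes without it, H2-Eb1 fell by 0.46 ± 0.03 (limma, adjusted p = 0.0205), a small value on this scale because its FPKM is low, and Ciita differed by 0.01 ± 0.03 (adjusted p = 0.887). The Cufflinks interval of a single H2-Eb1 value, 0.302 to 0.658 FPKM in WT Th1 replicate 1, is wide beside that error. The error of H2-Eb1 in this fit is thus likely too small and its p too low.

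The effect of STAT6 in Th2 cells was less even. Cd74 was 5.42-, 1.33- and 2.22-fold lower in STAT6 KO without a vector, with the control vector and with the GATA3 vector, where 17.4% of all genes tested were lower in 3 of 3 pairs, and its fitted difference of −1.12 ± 0.45 did not pass (limma, adjusted p = 0.225). H2-Ab1 was 14.2- and 2.78-fold lower in the first 2 pairs and 1.79-fold higher in the third. None of the 3 members tested passed, where 2.71% of all genes did (1.66% higher and 1.04% lower). H2-Ab1 differed by −0.89 ± 0.50 (limma, adjusted p = 0.374), and by −1.74 with an adjusted p of 0.0369 on leaving out either library with the GATA3 vector. H2-Aa, at 2 to 7 estimated fragments or listed at 0 in these 6 libraries, differed by −0.10 ± 0.23 (adjusted p = 0.861).

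**Figure D2:**
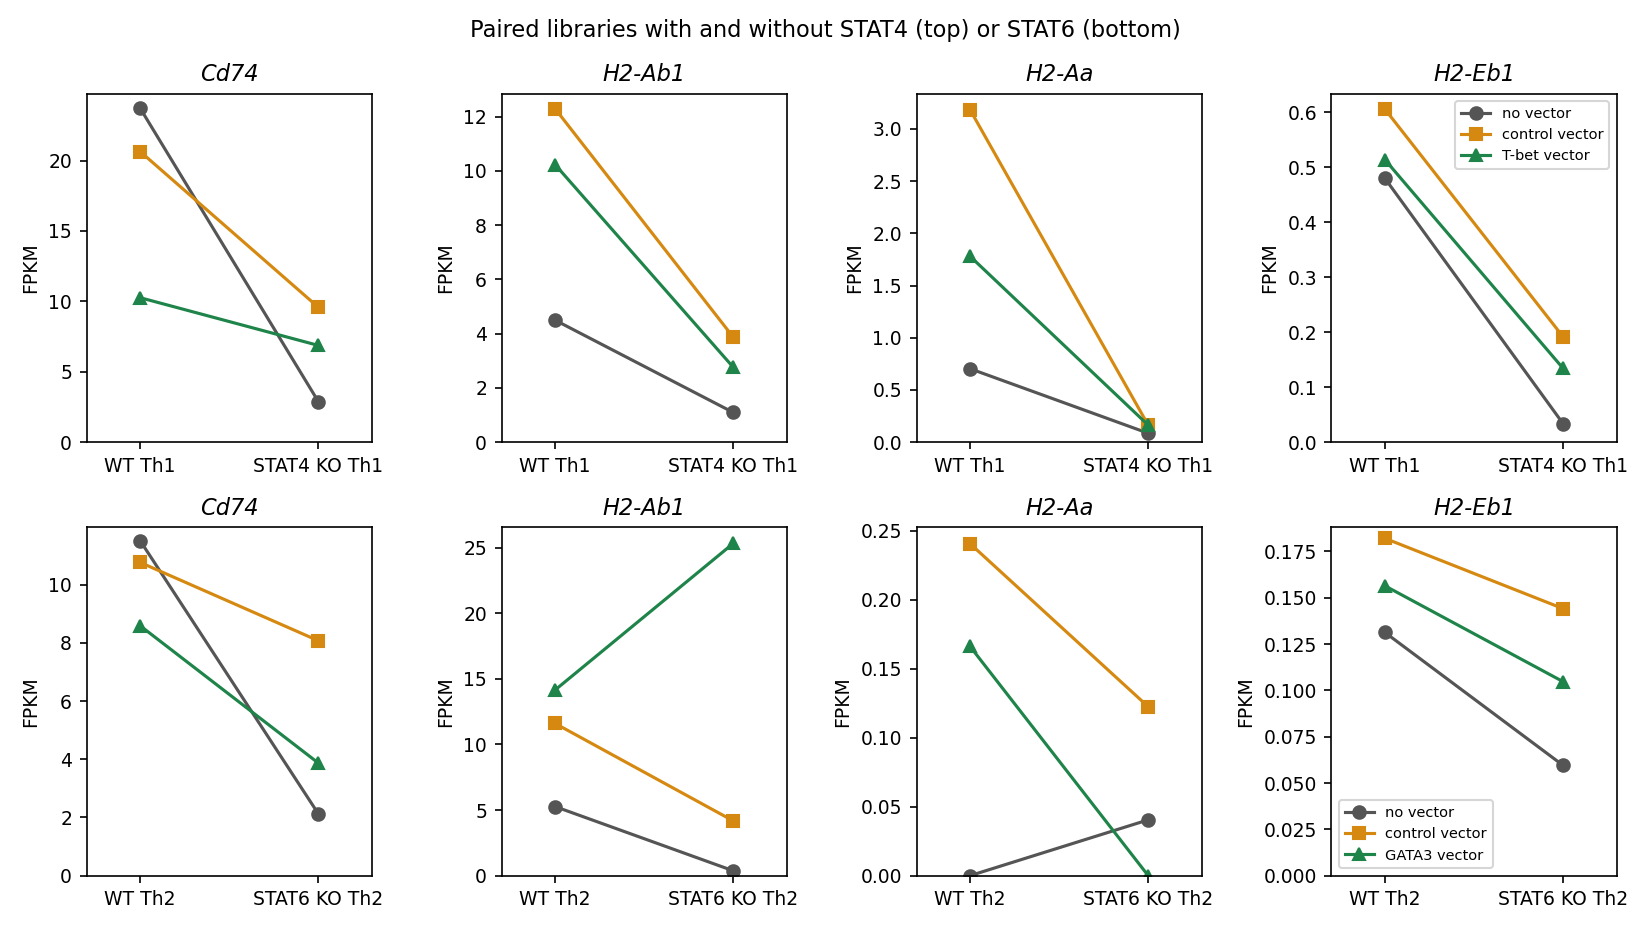
FPKM of 4 class II genes in each WT library and its knockout partner, STAT4 KO in Th1 cells above and STAT6 KO in Th2 cells below, with 1 line per culture and axes that start at 0. In the upper row every line goes down, and in the lower row the GATA3 vector pair of H2-Ab1 goes up from 14.1 to 25.3 FPKM.

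Between the lineages, H2-Aa was 0 against 0.704 FPKM and 0.241 against 3.18 in the 2 direct pairs of Th2 and Th1 libraries. Its fitted difference was −1.23 ± 0.26 (limma, adjusted p = 0.0421), but it reached 1 FPKM only in Th1 libraries, so it entered the test through the lineage where it was high, and the call ended without the filter (0.0774). This was 1 of 3 members tested, where 6.83% of genes were called, 1.57% higher and 5.26% lower. H2-Ab1 stood at 5.26 FPKM in WT Th2 and 4.50 in WT Th1 replicate 1, and at 11.6 and 12.3 with the control vector, a fitted difference of −0.39 ± 0.56 (adjusted p = 0.691). Cd74 was 2.06- and 1.92-fold lower in Th2, with a fitted difference of −0.74 ± 0.50 (limma, adjusted p = 0.388). The H2-Aa call also ended without the term for the libraries that stood apart (adjusted p = 0.101) and on leaving out any 1 of 11 libraries (0.0591 to 0.134), all but WT Th1 replicates 1 and 2 and T-bet KO. Without the filter, H2-Eb1 was lower in Th2 by 0.41 ± 0.03 (limma, adjusted p = 0.00850), with an error likely too small, as for STAT4 KO. About 5 to 9 estimated fragments lay behind its Th2 values and 27 to 33 behind those of WT Th1 replicate 1 and WT Th1 with either vector. The comparison between lineages and that of STAT4 share the WT Th1 libraries, so they are not independent.

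In each of 4 matched pairs, H2-Ab1 was higher with the control vector than without a vector, as were 40.1% of all genes tested. The groups overlapped, and the highest levels were in the 2 libraries without a vector that stood apart. It was 2.73-fold higher with the control vector in WT Th1, 3.54-fold in STAT4 KO Th1, 2.20-fold in WT Th2 and 11.2-fold in STAT6 KO Th2, a fitted rise of 1.35 ± 0.43 (limma, adjusted p = 0.0375). This was 1 of 3 members tested, and 51% of all genes were called in this comparison, 35.8% higher and 15.2% lower, so a call here sets the gene apart little. The median difference of all genes was 0.15. Cd74 differed by 0.68 ± 0.39 (limma, adjusted p = 0.192) and H2-Aa by 0.45 ± 0.20 (adjusted p = 0.0983). With a pseudocount of 0.1 in place of 1, H2-Aa rose by 1.24 (adjusted p = 0.0228). H2-Eb1, in the fit without the filter, rose by 0.12 ± 0.03 (limma, adjusted p = 0.0145), at low FPKM throughout and with an error likely too small. The H2-Ab1 call ended without the term for the libraries that stood apart (0.72, adjusted p = 0.534), without the filter (0.0637), with quantile normalization (0.0712), with upper-quartile scaling (0.0564) and on leaving out any 1 of 9 libraries (0.0603 to 0.110). It held on leaving out WT Th1 replicate 2, T-bet KO, WT Th2, or either library with the GATA3 vector.

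No tested member was called with added T-bet or GATA3. With the T-bet vector, 0.018% of genes were called, and Cd74 differed by −0.71 ± 0.52 (limma, adjusted p = 0.947). In WT Th1 cells Cd74 stood at 10.3 FPKM with the T-bet vector and 20.6 with the control vector, and in STAT4 KO cells at 6.87 and 9.58. H2-Aa in STAT4 KO cells stood at 0.163 FPKM with either vector. With the GATA3 vector, 2.9% of genes were called, 2.65% higher and 0.243% lower. H2-Ab1 stood at 14.1 FPKM against 11.6 with the control vector in WT and at 25.3 against 4.17 in STAT6 KO, a fitted difference of 1.36 ± 0.57 (limma, adjusted p = 0.282). That value rested on 1 library: it was 0.09 without the STAT6 KO GATA3 library and 2.63 (adjusted p = 0.0197) without the WT GATA3 library. Cd74 moved the other way in STAT6 KO cells, from 8.07 to 3.87 FPKM.

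T-bet KO Th1 held more Cd74 and H2-Aa than either WT Th1 library without a vector, as it did for 27.9% of all genes tested. Cd74 was 1.89-fold above replicate 1 and 3.75-fold above replicate 2, and H2-Aa 2.38- and 4.24-fold. H2-Ab1 was 8.03-fold above replicate 1 and 2.27-fold below replicate 2, so its direction depended on the WT library chosen. H2-Eb1 was 2.00-fold above replicate 1 and 1.07-fold below replicate 2.

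The alpha and beta chains of I-A did not keep a fixed ratio. H2-Ab1 over H2-Aa in FPKM was 6.39 in WT Th1 replicate 1, 3.86 with the control vector and 5.75 with the T-bet vector, and 12.8, 23.8 and 16.9 in the STAT4 KO partners. In Th2 it was 48.2 in WT with the control vector and 85.1 with the GATA3 vector, and 9.17 and 34.1 in STAT6 KO without a vector and with the control vector, with 2 to 7 estimated fragments of H2-Aa behind each. T-bet KO had a ratio of 21.6 and WT Th1 replicate 2 one of 208. In STAT6 KO Th2 with the GATA3 vector, H2-Ab1 was 25.3 FPKM and H2-Aa was listed at 0. Across the 12 other libraries Pearson's r of log2(FPKM + 1) was 0.61 between Cd74 and H2-Aa, 0.44 between Cd74 and H2-Ab1 and 0.33 between H2-Aa and H2-Ab1, as a description of libraries that share groups. In the 2 libraries that stood apart, the class I genes H2-Bl, H2-Q2 and H2-Q10, chosen after their values were seen, were also high, at 25.1 to 53.8 FPKM against at most 0.981 in the other 12. The part of that difference in their H2-Ab1 values was not tested.

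In each comparison that called a member, 1 of the 3 tested was called, and most other genes of class II assembly were not. The list of class II chains and loading genes held 12 genes, of which 8 were tested, the 3 members among them. H2-DMa, a chain of the peptide exchanger H2-M, stood at 8.54 to 79.4 FPKM, above H2-Aa in every library, and H2-Oa at 1.63 to 39.5. H2-DMa was highest in WT Th2 and stood at 21.3 FPKM in WT Th1 replicate 1 and 38.8 in its STAT4 KO partner. H2-Oa and H2-Ob, which encode the inhibitor of H2-M, fell with a vector, H2-Oa with a difference of −1.55 ± 0.22 and H2-Ob with −1.64 ± 0.21 (limma, adjusted p = 0.00176 and 0.00113), opposite in sign to H2-Ab1. H2-Ob was 3.22 FPKM in WT Th1 replicate 1 and 7.46 in its STAT4 KO partner. H2-Eb2 was at most 0.0270 FPKM, and H2-Ea-ps, the I-E alpha pseudogene, was listed at 0 in all libraries but 1. The pattern of X core, spacer and Y box found for H2-Aa and H2-Eb1 was also found for H2-Oa and H2-Ob, with other letters between. For STAT4 KO, H2-Oa and H2-Ob differed by −0.26 ± 0.25 and 0.45 ± 0.24 (limma, adjusted p = 0.581 and 0.301). Neither was called, where 3.49% of all genes tested were, and the part of the pattern in these differences was not tested. In the list as a whole, 1 of 8 genes fell without STAT4 and 0 rose, 1 fell in Th2, and with a vector 1 rose and 2 fell. Of all genes tested, 2.04% were called lower without STAT4, 5.26% lower in Th2, and 35.8% higher and 15.2% lower with a vector. The median difference of the list was −0.10 for STAT4 KO, where that of all genes was 0.03.

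**Figure D3:**
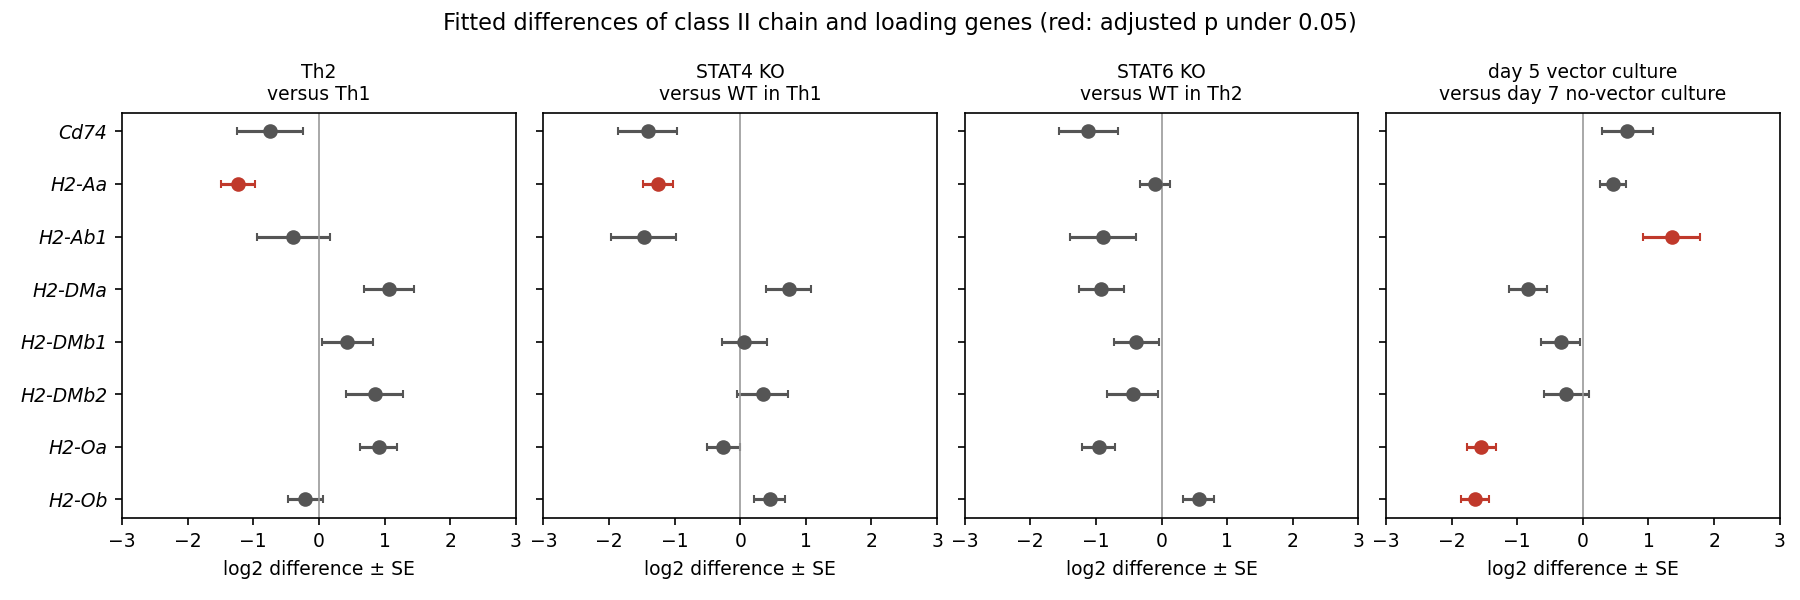
Fitted log2 differences (points) with standard errors (bars) of Cd74, the I-A chains and 5 loading genes in 4 comparisons, red where the adjusted p was under 0.05. H2-Aa, which entered the test through Th1 libraries where it was high, is lower in Th2 and in STAT4 KO, and with a vector H2-Ab1 is higher while H2-Oa and H2-Ob are lower.

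Of the factors that bind the class II promoter, Rfx5, Rfxank, Rfxap, Nfya, Nfyb, Nfyc and Creb1 were present in all libraries. Of the 6 tested, Rfxap rose with a vector by 0.60 ± 0.07 (limma, adjusted p = 0.000663) and Nfyc fell by 0.25 ± 0.09 (adjusted p = 0.04999, just under the threshold), and none was called in the other comparisons. Ifng, the cytokine that induces Ciita, was 8326 FPKM in WT Th1 replicate 1, 4074 with the control vector and 5199 with the T-bet vector, and 60.3, 22.6 and 1739 in the STAT4 KO partners. It fell in Th2, with a difference of −8.65 ± 1.198 (limma, adjusted p = 0.0155), and its difference of −5.37 ± 1.07 for STAT4 KO did not pass (adjusted p = 0.0512). Irf1, which acts on the interferon-inducible Ciita promoter, rose in STAT6 KO by 2.57 ± 0.42 (limma, adjusted p = 0.0351). In the list of 9 genes of this input, 8 were tested and 2 fell in Th2, as did 5.26% of all genes tested. The 2 were Ifng and the receptor chain Ifngr1 (−1.98 ± 0.44, limma, adjusted p = 0.0488). The medians of the 8 were −0.71 in Th2 and −0.27 in STAT4 KO, where none of the 8 was called.

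The costimulatory ligands Cd80 and Cd86, which bind CD28 on T cells, were called lower in both comparisons that called H2-Aa, which share the WT Th1 libraries. Of all genes tested, 2.04% were called lower without STAT4 and 5.26% in Th2. For Cd80 the difference was −1.42 ± 0.26 without STAT4 and −2.29 ± 0.29 in Th2 (limma, adjusted p = 0.0442 and 0.0123). For Cd86 it was −1.88 ± 0.28 and −2.67 ± 0.31 (adjusted p = 0.0313 and 0.00973). Cd80 stood at 4.97, 12.1 and 5.67 FPKM in the 3 WT Th1 libraries and at 0.672, 3.08 and 3.00 in the STAT4 KO partners. Cd40, the third of this list, was not called in either comparison. Among 7 lysosomal processing genes, 1 was called in these comparisons, the protease Ctsd, with −0.86 ± 0.09 without STAT4 and −0.55 ± 0.10 in Th2 (limma, adjusted p = 0.0183 and 0.0304). The calls of Cd80, Cd86 and Ctsd were not followed on leaving out single libraries. Over all genes, 388 were called for STAT4 KO, and 1 on leaving out STAT4 KO Th1 with the control vector. With a vector, 3 of the 7 were called lower and 1 higher, where 15.2% of all genes tested were called lower and 35.8% higher. Ctss, which trims the invariant chain, fell by 1.24 ± 0.26 (limma, adjusted p = 0.00816). Ctsd and Ctsb fell as well, and Ctsz rose by 0.77 ± 0.10 (limma, adjusted p = 0.00105).

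Markers of presenting cells were compared with those of T cells in the same libraries. Among T cell markers, Cd3e stood at 95.6 to 166 FPKM, and all 13 of the list reached 1 FPKM in every library. Markers of B cells, dendritic cells and macrophages were mixed: Ms4a1, Pax5, Clec9a, Siglech, Csf1r, Lyz2 and C1qa were under 0.1 FPKM in all 14 libraries, while Zbtb46, Itgax, Clec10a, Xcr1, Fcrl1 and Emr1 passed 1 FPKM in at least 1 library, with the values that follow. Of 15 B cell markers, 3 reached 1 FPKM in any library, Cd79a, Fcrl1 (up to 4.42) and Spib (2.11 in WT Th2 with the GATA3 vector), and 7 stayed under 0.1. The summed B cell markers were 1.83 to 2.82 FPKM in the 3 WT Th1 libraries and 1.63 to 5.45 in STAT4 KO, where Cd74 was lower. Among the 12 libraries that did not stand apart, they were 1.26 to 1.83 without a vector and 1.52 to 5.59 with one. Cd79a and Fcrl1, the 2 tested, were both called higher with a vector, as were H2-Ab1 and 35.8% of all genes tested. Fcrl1 reached 1 FPKM only in libraries with a vector, so it entered the test through the group where it was high. Cd79a reached 1 FPKM only in STAT6 KO Th2 with either vector and in WT Th1 replicate 2. The part of B cell RNA in the rise of H2-Ab1 was not tested.

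Dendritic cell markers moved with STAT4 in part. Without Cst3, an inhibitor of proteases that many cell types make, the other 11 markers summed to 3.14 to 5.17 FPKM in the 3 WT Th1 libraries and 1.29 to 2.72 in STAT4 KO, and 4 of the 11 stayed under 0.1 FPKM in every library. That sum was chosen after the values were seen. With Cst3 the sums overlapped, at 45.2 to 49.3 and 41.1 to 50.9 FPKM. In WT Th1 most of the sum without Cst3 was Zbtb46, at 1.85, 3.30 and 2.31 FPKM in WT Th1 and 0.922, 1.12 and 0.931 in STAT4 KO, and Xcr1, which fell by 0.61 ± 0.12 (limma, adjusted p = 0.0475). Xcr1 reached 1 FPKM only in WT Th1 with either vector and in WT Th2 with the GATA3 vector. It thus entered the STAT4 comparison through the group where it was high. Of the 4 dendritic markers tested, 1 fell without STAT4 and 1, Zbtb46, fell in Th2 (−1.40 ± 0.25, limma, adjusted p = 0.0298). Among all genes tested, 2.04% were called lower without STAT4 and 5.26% in Th2. These marker calls were not followed on leaving out single libraries either. Whether RNA of dendritic cells has a part in the H2-Aa and Cd74 differences was not tested. In WT Th2 with the GATA3 vector, Itgax reached 3.34 FPKM and Clec10a 3.25, and H2-Ab1 stood at 14.1 and H2-Aa at 0.166. In STAT6 KO with the GATA3 vector Clec10a was 2.32 FPKM and H2-Ab1 25.3, so both were higher there than with the control vector, and the part of such RNA in H2-Ab1 was not tested. Xcr1 rose with the GATA3 vector by 0.77 ± 0.13 (limma, adjusted p = 0.0353). Clec10a was called as well, but it reached 1 FPKM only in these 2 libraries and so entered the test through the group where it was high.

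Most macrophage markers were low. Of 20 found in the tables, Ccr2 and Cd68 took most of the sum, and both are also made by other cells, Ccr2 by activated T cells. The other 18 summed to 1.69 to 3.75 FPKM in WT Th1 and 1.57 to 2.31 in STAT4 KO, a sum chosen after the values were seen. In STAT6 KO, where Cd74 was lower than in WT Th2, they summed to 2.19 to 2.98 FPKM, against 2.17 to 10.8 in WT Th2. The highest sum, 10.8 FPKM, was in WT Th2 without a vector, where Emr1 was 8.42 FPKM, Cd74 11.5, H2-Ab1 5.26 and H2-Aa was listed at 0. In its STAT6 KO partner Emr1 was 0.0343 FPKM, Cd74 2.13 and H2-Ab1 0.371, so Emr1 moved with these 2 members in that pair, and its part was not tested. In WT Th1 replicate 2, where H2-Ab1 was 81.9 FPKM, the B cell, dendritic (without Cst3) and macrophage sums were 2.37, 1.94 and 5.29 FPKM. In T-bet KO, which held the most Cd74, they were 1.82, 1.05 and 2.92 FPKM. Itgam (1.79 FPKM), Aif1 (1.30), Cd79a (1.30) and Flt3 (0.874) had their highest values of the 14 libraries in WT Th1 replicate 2. There, 5 of 20 macrophage, 1 of 15 B cell and 1 of 12 dendritic cell markers reached 1 FPKM. The part of such RNA in its H2-Ab1 value was not tested. The naive T cells were sorted, and the labels' protocols name plate-bound antibodies and no added presenting cells.

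**Figure D4:**
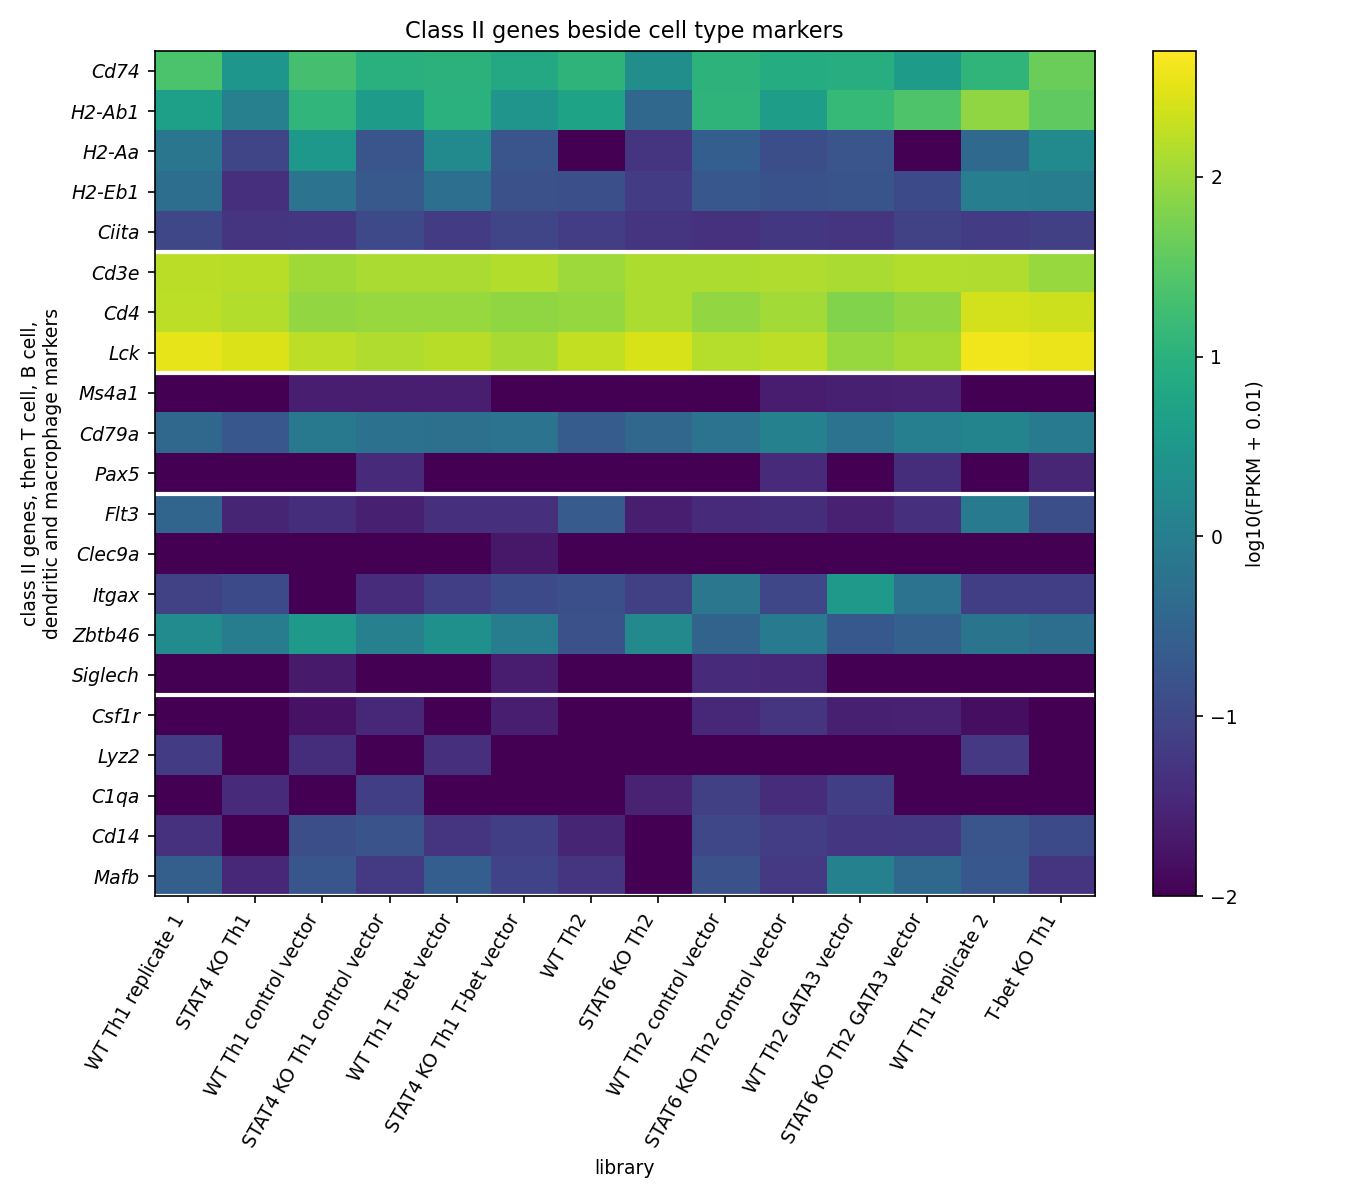
Levels of the 5 class II genes and of T cell, B cell, dendritic cell and macrophage markers, in that order from the top, in 14 libraries as log10(FPKM + 0.01), where the darkest colour is 0 FPKM. Cd3e, Cd4 and Lck are bright in all libraries, Ms4a1, Pax5, Clec9a and Lyz2 are dark, and Cd74 and H2-Ab1 lie between.

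The genes most like the class II genes were named by the Pearson correlation between their log2(FPKM + 1) and the mean log2(FPKM + 1) of the tested members over the 12 other libraries, a description of libraries that share groups. Of 10895 genes ranked, the closest were Mllt6 (0.96), the hexokinase gene Hk2 (0.95), the lactate transporter gene Slc16a3 (0.94), Junb, an AP-1 subunit (0.94), and the IL-2 receptor beta chain gene Il2rb (0.93). Nlgn2, Ppp1r15a, Slc2a1, A130040M12Rik and Obfc2a made up the rest of the closest 10 (0.92 to 0.93). Hk2 stood at 44.6, 50.8 and 41.9 FPKM in the 3 WT Th1 libraries and at 13.4, 27.7 and 31.0 in the STAT4 KO partners, and at 25.4 and 9.29 in WT and STAT6 KO Th2 without a vector. Hk2 was picked for its likeness to a mean that holds Cd74, so low values in the same libraries as Cd74 are part of that choice. Over all 14 libraries the correlation was −0.13 for A130040M12Rik and 0.48 for Obfc2a, and 0.91 to 0.97 for the rest of the 10. No gene of the marker or pathway lists was among the closest 10. The nearest of these were Cd68, at rank 246 (0.77), Xcr1, at rank 335 (0.74), Eomes, at rank 577, and Cd80, at rank 626. Cd79a stood at rank 2704 and Ifng at 4393. Only tested genes were ranked, 2 of the 15 B cell markers among them, and the source of the class II RNA was not tested. H2-DMa (−0.37) and H2-Ob (−0.68) ran the other way.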

How the data were processed

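RNA was measured in 14 libraries of 13 groups, and the ChIP samples are not analysed here. Per the labels' protocols, total RNA was made into TruSeq libraries and sequenced as single reads. The authors deposited FPKM values per gene with interval bounds, made with Cufflinks per the file headers. Per the submitters' processing notes, TopHat, Cufflinks and SICER were named and the build was mm9, with no versions; these and the annotation are not stated in the labels or headers. Entries whose estimate failed in any library (118) were left out. No counts are given: fragments behind a value were estimated from its upper bound, an estimate of counting error only, and no count test was run.

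Tests used limma 3.58.1 in R 4.3.3 (eBayes with a trend) on log2(FPKM + 1), a scale that understates the change of low genes. All 14 libraries entered 1 additive fit with terms for lineage, vector culture, each knockout, each added factor and the 2 libraries that stood apart, with 5 residual degrees of freedom. The spread is thus what the additive terms leave over in the other 12 libraries, and p-values were adjusted over 11121 genes. The members, lists, tests and the term for the 2 libraries were chosen with earlier results of these data known. Named genes are the members, list genes that passed or reached 1 FPKM in 2 libraries, and the 10 most like the members. Outside this rule, markers near 0, H2-Ea-ps, H2-Eb2, Emr1, Itgax, Spib, Aif1, Flt3 and 3 class I genes are named too, chosen after their values were seen. On simulated data with 100 genes changed by 1 and 100 by 2, the fit called 74 and 98 for STAT4 KO and 63 and 95 for Th2 versus Th1. Alternatives changed scaling, pseudocount, filter, the term and each library in turn. A fit with interactions and one without both libraries that stood apart were added after the data were seen.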

Additional observations from a re-analysis of the deposited data

Results flagged for a closer look

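The direction of 3 differences changed between cultures of the same contrast. H2-Ab1 in STAT6 KO against WT Th2 was −2.19 on the log2 scale without a vector and −1.28 with the control vector, and 0.80 with the GATA3 vector. In a fit with interactions, added after the data were seen, the difference between the cultures with and without GATA3 was 2.54 ± 0.42 (limma, adjusted p = 0.474), and 5 of 11121 genes passed. It rests on 1 library, STAT6 KO with the GATA3 vector. Cd74 in cultures with the control vector against those without was −0.19 in WT Th1 and −0.0888 in WT Th2, and 1.45 in STAT4 KO Th1 and 1.54 in STAT6 KO Th2, a difference between WT and knockout cells that was not tested. H2-Ab1 in Th2 against Th1 was 0.19 without a vector and −0.0779 with the control vector, also not tested.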

How the results depend on the processing

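No paired analysis was possible because only WT Th1 has a second replicate number, and the pairs by culture enter the fit through its additive terms. Without both libraries that stood apart, each count of called genes and of called members was within 1.5 times the reported one. Without the term for them, the genes called were 3505 with a vector (5671 with the term), 357 in Th2 versus Th1 (760), 81 for STAT4 KO (388), 107 for STAT6 KO (301), 117 with the GATA3 vector (322) and 0 with the T-bet vector (2), and the members called were 0 each with a vector, in Th2 versus Th1 and for STAT4 KO. Without a filter on low values they were 435, 128, 153, 501 and 0 for Th2 versus Th1, STAT4 KO, STAT6 KO, the GATA3 vector and the T-bet vector. With a filter at 5 FPKM, which H2-Aa did not pass, they were 190 with the GATA3 vector and 1 with the T-bet vector, and 0 members were called in Th2 versus Th1 and for STAT4 KO. With the T-bet vector, 1 gene was called with a pseudocount of 0.1 and 1 with quantile normalization, and 0 with upper-quartile scaling. With a vector, 2 members were called with the pseudocount of 0.1 and 0 with quantile normalization or upper-quartile scaling. Of the genes called with a vector, 3980 were higher, against 2953 of 5439 with quantile normalization and 3042 of 5557 with upper-quartile scaling. In Th2 versus Th1, 175 of 760 were higher, against 293 of 711 and 222 of 615. For STAT6 KO, 185 of 301 were higher, against 158 of 312 with quantile normalization and 48 of 107 without the term.

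Leaving out 1 library at a time gave 4606 to 5870 genes called with a vector, 136 to 742 in Th2 versus Th1, 1 to 539 for STAT4 KO, 36 to 467 for STAT6 KO, 86 to 435 with the GATA3 vector and 0 to 3 with the T-bet vector. Members called ran from 0 to 1 in each comparison but the T-bet vector (0 to 0). The sign turned for 3 differences, none of them called. H2-Ab1 in Th2 versus Th1 ran from −0.94 to 0.0287, the latter without either library with the GATA3 vector. H2-Aa for STAT6 KO ran from −0.25 to 0.000637, the latter without STAT6 KO Th2 control vector, and H2-Aa with the T-bet vector ran from −0.32 to 0.17, the latter without WT Th1 control vector. With interactions, H2-Aa for STAT4 KO was −1.25 (adjusted p = 0.208). Except where an alternative leaves out genes or libraries, the cause was not tested. Depth limits Ciita in every library, and H2-Aa and H2-Eb1 in the STAT4 KO and Th2 libraries, where at most 10 estimated fragments lay behind each value.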
